A study of Danio rerio with 8 samples.

Results

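Megalin and cubilin are large endocytic receptors, and 6 genes of this uptake system were followed in sorted sp7-GFP cells of zebrafish larvae: lrp2a, lrp2b, cubn, amn, dab2 and lrpap1. They were taken as the rows of the count table whose symbol equals one of these names, which gave 6 of 32520 gene rows. The list was chosen from values already known, because it was built around lrp2a for its higher level in P1 than in P2. The difference between the populations is therefore described for these genes with no test. Of the 6 genes, 5 had enough reads to enter the fit across all genes, which needed at least 10 reads in at least 3 libraries, and amn did not.

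Megalin, the product of the lrp2 genes, belongs to the LDL receptor family and takes up vitamin carriers, hormones and lipoproteins from fluid outside the cell. Cubilin, the product of cubn, has no membrane-spanning part of its own and reaches the cell surface with amnionless, the product of amn, while megalin helps to carry it inward. Dab2 couples the tail of megalin to clathrin. Lrpap1, also called RAP, is a chaperone that keeps ligands off LDL receptor family proteins in the endoplasmic reticulum. The system is best known from the proximal tubule of the kidney and from absorbing epithelia of the intestine, and in mammals megalin is also made in the inner ear and the neuroepithelium.

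Cells were taken at 4 dpf from offspring of a heterozygous Tg(sp7:sp7-GFP) fish of the AB strain line ulg071 and a wt fish, in which the reporter follows the endogenous sp7 gene of osteoblasts. Each library came from a pool of about 100 to 150 transgenic larvae, and 30000 to 50000 living cells were sorted on GFP, with no other marker of cell type. P1 was the population with weak GFP (5 libraries, replicates 1, 2, 3, 5 and 6) and P2 that with strong GFP (3 libraries, replicates 1, 2 and 4), and both carried the same transgene at the same age with no treatment. The labels do not say whether replicates came from separate clutches, so p-values measure only the spread between these libraries. Values are read counts divided by a size factor for each library, called normalized read counts below, with no correction for gene length, so levels are compared between libraries and not between genes.

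The libraries held between 7510312 reads (P2 replicate 4) and 13034333 reads (P1 replicate 2). sp7 ranged from 30.0 to 99.1 normalized read counts in P1 and from 771 to 1227 in P2, as the gates set it. Marker RNA of other cell types was present in unequal amounts. The summed level of 10 muscle markers was 28151 in P1 replicate 1, 40181 in P1 replicate 6 and 25384 in P2 replicate 2, and between 193 and 2314 in the other libraries. All 10 osteoblast markers tested rose in P2 (limma, adjusted p under 0.05), as 7.57% of all genes tested did. The summed level of the osteoblast markers was 425 to 1503 in P1 and 49247 to 68465 in P2.

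lrp2a (ENSDARG00000102506), a megalin gene, was higher in every P1 library than in any P2 library, and it differed more among the P1 libraries than nearly all other genes. Its normalized read count was 13.0 in P1 replicate 1, 63.9 in replicate 2, 294 in replicate 3, 140.4 in replicate 5 and 46.2 in replicate 6. In P2 it was 6.79 in replicate 1, 7.16 in replicate 2 and 0.878 in replicate 4. P1 replicate 3 was the highest and P1 replicate 1 the lowest of its population, and the populations did not overlap. These values rested on 43 to 1328 reads in each P1 library and on 3 to 26 in each P2 library. The mean was 111 ± 112 (SD, n = 5) over P1 and 4.94 ± 3.52 (SD, n = 3) over P2, with a log2 fold change of -3.85 (SE 0.82) on the scale of log2(normalized read count + 1). Libraries measured in bulk cannot tell fewer cells of a type from less RNA per cell, here or in any comparison below.

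The spread of lrp2a over P1 was far larger than counting error. The highest P1 library exceeded the lowest by 22.6-fold. Exact 95% Poisson intervals, which cover counting error only because PCR reads carry no molecular identifiers, were 9.40 to 17.5 in replicate 1, 38.9 to 54.4 in replicate 6 and 57.4 to 71.1 in replicate 2. They were 129 to 153 in replicate 5 and 278 to 310.2 in replicate 3, so no interval overlapped that of another P1 library. The SD of lrp2a over P1 was 1.66 on the log2 scale, above that of 98.0% of genes tested, where the median gene had 0.548. At the lower end, the interval of P1 replicate 1 overlapped those of P2 replicate 1 (4.15 to 10.5) and P2 replicate 2 (4.68 to 10.5).

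**Figure D1:**
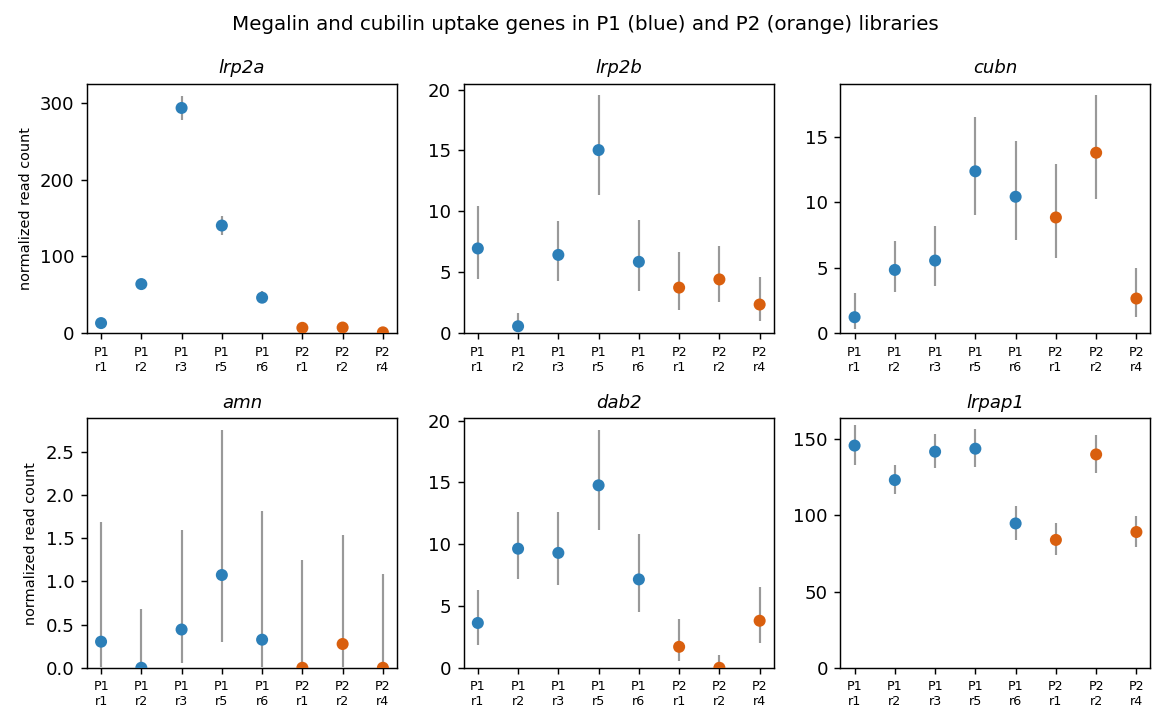
Normalized read counts (vertical axes, each starting at 0 with its own scale) of the 6 genes in each library, P1 in blue and P2 in orange, with lines for exact 95% Poisson intervals of the read counts. lrp2a reaches 294 in P1 replicate 3 and stays at or below 7.16 in P2, while lrpap1 lies between 83.8 and 146 in all 8 libraries.

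The second megalin gene, lrp2b (ENSDARG00000007906), rested on 3 to 56 reads in each library and did not follow lrp2a. It stood at 6.95, 0.556, 6.42, 15.0 and 5.85 in P1 replicates 1, 2, 3, 5 and 6, and at 3.73, 4.40 and 2.34 in P2 replicates 1, 2 and 4. P1 replicate 2, the third highest library for lrp2a, was the lowest of all 8 for lrp2b, with 3 reads and an interval of 0.115 to 1.63. The populations overlapped, with a mean of 6.96 ± 5.19 (SD, n = 5) over P1, a mean of 3.49 ± 1.05 (SD, n = 3) over P2 and a log2 fold change of -0.52 (SE 0.67).

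cubn (ENSDARG00000087013), the cubilin gene, rested on 4 to 50 reads in each library and showed no separation. Its values were 1.21, 4.82, 5.53, 12.3 and 10.4 in P1 replicates 1, 2, 3, 5 and 6, and 8.82, 13.8 and 2.63 in P2 replicates 1, 2 and 4. The highest library was P2 replicate 2, a muscle-rich library, so cubilin transcript was not confined to the population that held lrp2a. The log2 fold change of 0.29 (SE 0.66) was smaller than its error, and without P2 replicate 2 it was -0.15. amn (ENSDARG00000062947), whose product anchors cubilin, was hardly seen at all. It had 1, 0, 2, 4 and 1 reads in P1 replicates 1, 2, 3, 5 and 6 and 0, 1 and 0 reads in P2 replicates 1, 2 and 4, and no fold is given for it. A difference in amn was not detectable at this depth, where 3 reads correspond to between 0.556 and 1.02 normalized read counts.

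dab2 (ENSDARG00000031761), the clathrin adaptor gene, was lower in P2 on average. It stood at 3.63, 9.64, 9.30, 14.8 and 7.15 in P1 replicates 1, 2, 3, 5 and 6, and at 1.70, 0 and 3.81 in P2 replicates 1, 2 and 4. P1 replicate 1 lay just below P2 replicate 4, so the populations overlapped by this pair of libraries. The means were 8.89 ± 4.06 (SD, n = 5) and 1.83 ± 1.91 (SD, n = 3), with a log2 fold change of -1.97 (SE 0.60). The size of this fold depended on how low counts were treated, at -1.01 with a pseudocount of 5 and -3.14 with voom. A separate row with the symbol in capitals, DAB2 (ENSDARG00000053091), was not taken by the rule and had between 260.0 and 810 normalized read counts in P1 and between 298 and 388 in P2, which overlapped (log2 fold change -0.33, SE 0.35).

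lrpap1 (ENSDARG00000033604), the chaperone gene, was the steadiest of the members. It stood at 146, 123, 142, 144 and 94.6 in P1 replicates 1, 2, 3, 5 and 6, and at 83.8, 139.9 and 89.0 in P2 replicates 1, 2 and 4. The populations overlapped, with a log2 fold change of -0.33 (SE 0.29). Over P1 the highest library exceeded the lowest by 1.54-fold, and only 9.55% of genes tested had a smaller SD over these libraries. The chaperone of the receptor thus stayed level across libraries in which the receptor transcript differed by 22.6-fold.

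Of the 5 members in the fit, lrp2a alone had no overlap between the populations. Among all genes tested 20.6% had no overlap, and 8.82% had every P1 library above every P2 library. Because the members were chosen with these values known, nothing is read from this count.

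Whether lrp2a varied with its partners over the 5 P1 libraries was examined by order and by distance, since 5 libraries are too few for a correlation. For each gene the 10 pairs of P1 libraries were checked for the same order as in lrp2a. The distance was the root mean square difference between centred log2(normalized read count + 1) values of the gene and of lrp2a, ranked over 18474 genes. All genes share the same libraries and size factors, so these measures are descriptions with no p.

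No partner kept the order of lrp2a in all 10 pairs of P1 libraries. dab2 came nearest, with 8 of 10 pairs in the same order and a distance of 1.07, at rank 695 (3.76%). Its pairs out of order set replicate 3 below replicates 5 and 2, within counting error. The Poisson interval of dab2 was 6.70 to 12.6 in replicate 3, 11.1 to 19.2 in replicate 5 and 7.20 to 12.6 in replicate 2. The separate DAB2 row, not taken by the rule, had 3 pairs and a distance of 1.89, at rank 16457 (89.1%). cubn had 7 pairs and a distance of 1.16, at rank 1213 (6.57%), and amn, which was not ranked, also had 7. lrp2b and lrpap1 had 5 pairs each, equal to the median over all genes, at ranks 13236 and 6071. In all, 32 of 50 pairs (64%) were in the order of lrp2a, 7 of them from amn with its few reads. The share of pairs over all genes was 49.8%. Over all genes, 10.1% had at least 8 pairs in this order, 21.7% at least 7 and 59.5% at least 5.

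The partial likeness of cubn rested on P1 replicate 1, where both genes were lowest. Without that library cubn kept 3 of 6 pairs and moved to rank 12454, and dab2 kept 4 of 6 and moved to rank 3531. lrp2b then kept 4 of 6, at rank 11712. lrpap1 kept 5 of 6 and moved to rank 1759, the nearest of the ranked partners in that setting. The pair count of lrpap1 depended on the scaling of the libraries, with 8 pairs under trimmed mean scaling and 9 under library totals alone. Its rank changed little with scaling, at 6030 and 5779. In P1 replicates 3 and 5 the megalin gene and its partners also parted: lrp2a was higher in replicate 3, while lrp2b, cubn and dab2 were higher in replicate 5. Poisson intervals of these libraries overlapped for dab2 but not for lrp2b or cubn. The ratio of lrp2a to each partner within a library accordingly varied over P1 by 8.82-fold for dab2, 12-fold for cubn, 23.3-fold for lrpap1 and 61.5-fold for lrp2b. The highest ratio for lrp2b, 115 in P1 replicate 2, rested on 3 reads of lrp2b.

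**Figure D2:**
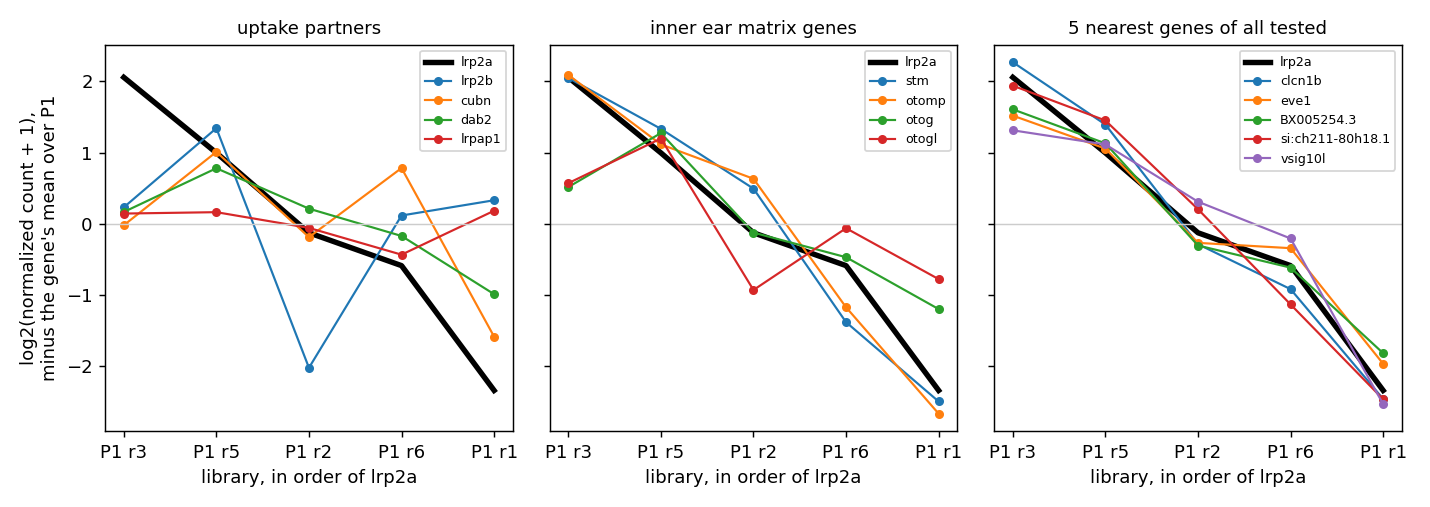
Centred log2(normalized read count + 1) of lrp2a (black) and other genes (vertical axis) over the 5 P1 libraries, ordered along the horizontal axis from highest to lowest lrp2a. The uptake partners on the left cross the lrp2a line, whereas stm and otomp in the middle and the 5 nearest genes on the right fall in its order in all 10 pairs. Also in the middle, otog keeps 9 pairs and otogl 7.

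The genes nearest to lrp2a over P1 were not uptake genes. The smallest distances among all genes tested were those of clcn1b (0.27), which encodes a chloride channel, the homeobox gene eve1 (0.32), BX005254.3 (0.32), si:ch211-80h18.1 (0.36) and vsig10l (0.43), each with 10 of 10 pairs. si:ch211-80h18.1 stood at 49.3, 319, 1063, 757 and 126 in P1 replicates 1, 2, 3, 5 and 6 and at 0, 3.30 and 0 in P2 replicates 1, 2 and 4. It was also lower in P2, with a log2 fold change of -7.41, given with no p because the gene was picked for its likeness to lrp2a. eve1 stood at 0.906, 5.19, 20.4, 14.5 and 4.88 in the same P1 libraries and had 1 read in all of P2. The ratio of lrp2a to eve1 varied by 1.52-fold over P1. A small range follows from picking eve1 for its likeness, and its value in P1 replicate 1 rested on 3 reads. With 5 libraries the ranking was not stable, because between 0 and 3 of these 5 genes stayed among the nearest 5 when 1 P1 library was left out.

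The otolith matrix genes otomp and stm, which are made by cells of the inner ear, lay close behind at ranks 6 and 8. stm (starmaker) stood at 144, 1149, 3378, 2057 and 312 in P1 replicates 1, 2, 3, 5 and 6, and at 0.339, 13.8 and 0 in P2 replicates 1, 2 and 4. otomp (otolith matrix protein) stood at 30.5, 309, 852, 433 and 87.8 in P1 and at 0, 12.9 and 0 in P2. Both put all 10 pairs of P1 libraries in the order of lrp2a, as 0.633% of all genes did, and no P2 library reached the lowest of P1. The ratio of lrp2a to otomp varied by 2.54-fold over P1 and that to stm by 2.66-fold, against the 8.82-fold or more found for the tested partners. A small range follows from a small distance and was not particular to ear genes. It was 2.62-fold for shha, 2.71-fold for clcn1b and 4.85-fold for atp1a1a.4, but 13.7-fold for pax2a. Leaving out P1 replicate 1 moved otomp and stm to ranks 75 and 124, and leaving out P1 replicate 3 moved them to 199 and 252. The ear genes otog and otogl had 9 and 7 pairs with all P1 libraries, at ranks 168 and 642.

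**Figure D3:**
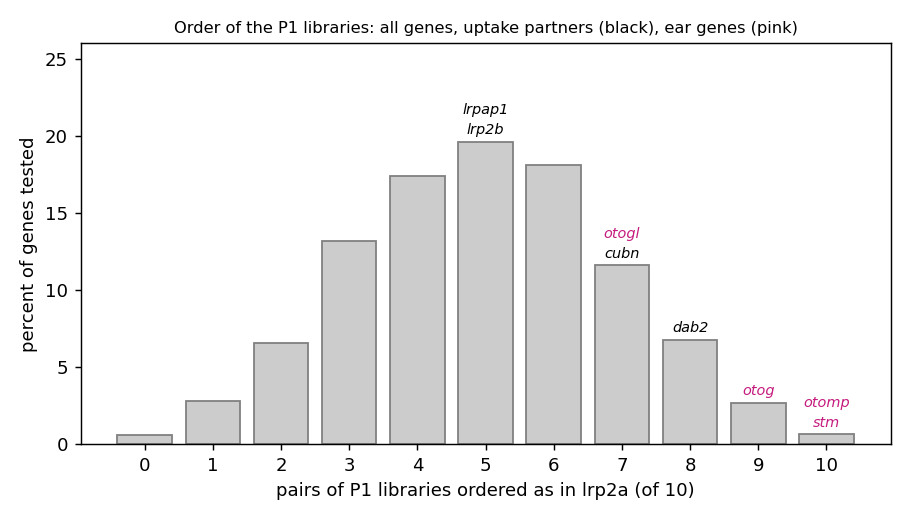
Percent of genes tested (vertical axis) by the number of the 10 P1 library pairs ordered as in lrp2a (horizontal axis), with the tested partners in black and otic matrix genes in pink above their bars. The partners sit between 5 and 8 pairs. Of the otic matrix genes, otogl has 7, otog has 9 and otomp and stm have 10.

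The sums of cell type markers were set beside lrp2a in the same way. The 11 inner ear markers found summed to 224 in P1 replicate 1, 1554 in replicate 2, 4387 in replicate 3, 2772 in replicate 5 and 485 in replicate 6, which is the order of lrp2a in all 10 pairs. In P2 they summed to between 16.1 and 59.2. Of the 11, 4 fell in P2 (stm, otomp, otogl and myo7aa, limma), where 7.05% of all genes tested fell. At least 9 pairs were in the order of lrp2a for 5 of the 11 and for 3.32% of all genes. The markers tectb and cldnj had 0 reads in all P2 libraries, but cldnj was at most 2.68 in P1. Since stm and otomp make up most of the sum, their weight sets its order, and the part of inner ear cells in the lrp2a values was not tested.

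Kidney markers were set beside lrp2a by nephron segment. The sum of 10 distal tubule and duct markers, 242 to 1184 in P1 and 65.5 to 208 in P2, kept 9 of 10 pairs in the order of lrp2a. Much of it was atp1a1a.4, a sodium pump subunit gene, with 153, 155, 966, 515 and 189 in P1 replicates 1, 2, 3, 5 and 6 and at most 4.68 in P2 (limma, log2 fold change -6.46 and adjusted p = 3.33e-05). The sum of 20 proximal tubule markers kept 7 pairs, and at 253 to 590.0 in P1 and 418 to 678 in P2 it overlapped between the populations. Of 14 tested, 6 fell in P2, where 7.05% of all genes tested fell: pdzk1, pdzk1ip1, cdh17, pax2a, hnf1ba and hnf1bb. Of these, cdh17 is also on the enterocyte list below, and pdzk1, hnf1ba and hnf1bb had 2, 2 and 1 reads in all of P2. Another 7 were not called, among them the solute carrier genes slc4a4a, slc5a12, slc22a7a, slc3a1 and slc7a9. slc20a1a, a phosphate transporter gene, rose by 3.26 ± 0.48 (SE) on the log2 scale (limma, adjusted p = 0.00115). It stood at 562, 326 and 265 in P2 replicates 1, 2 and 4 and at most 66.2 in P1. The overlap of the proximal tubule sum rested on slc20a1a, which made up most of that sum in every P2 library. The other proximal tubule markers together were higher in every P1 library than in any P2 library. pax2a, a transcription factor gene of kidney and ear, kept all 10 pairs but ranged only from 53.5 to 88.3 in P1. slc26a1, pax8 and slc9a3.2 had 0 reads in P2, but their P1 means were only 2.44, 0.63 and 1.72 and they had too few reads to be tested. The part of kidney cells in the lrp2a values was not tested.

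Other lists did not share the order of lrp2a. The sum of 14 enterocyte markers, which include those of the lysosome-rich cells that use this receptor system, was highest in P1 replicate 2 at 619 and kept 5 pairs, with 14.3 to 51.5 in P2. The sum of 14 endothelial markers, which include scavenger receptors, kept 6 pairs, at 556 to 843 in P1 and 255 to 448 in P2. Of these 14, 6 fell in P2, where 7.05% of all genes tested fell, and 0 rose (limma). mrc1a had 0 reads in P2. The sum of 14 macrophage markers kept 4 pairs, at 145 to 253 in P1 and 38.3 to 70.8 in P2. Of 12 tested, 6 fell, where 7.05% of all genes tested fell, and 0 rose. c1qa and cd74a had 0 reads in P2, but were at most 2.59 and 3.52 in P1. The part of these cells in the values of the uptake genes was not tested. Muscle markers kept 1 pair, and the most muscle-rich P1 libraries, replicates 1 and 6, were those with the least lrp2a. Without these and P2 replicate 2, a choice made after the data were seen, the log2 fold change of lrp2a was -5.19 and that of dab2 was -1.74. The osteoblast sum kept 0 of 10 pairs, being highest in P1 replicate 1 (1503) and lowest in replicate 3 (425), the reverse of lrp2a. spp1 and col10a1a carried much of this sum, with 648 and 392 in P1 replicate 1, and sp7 itself kept 3 pairs.

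**Figure D4:**
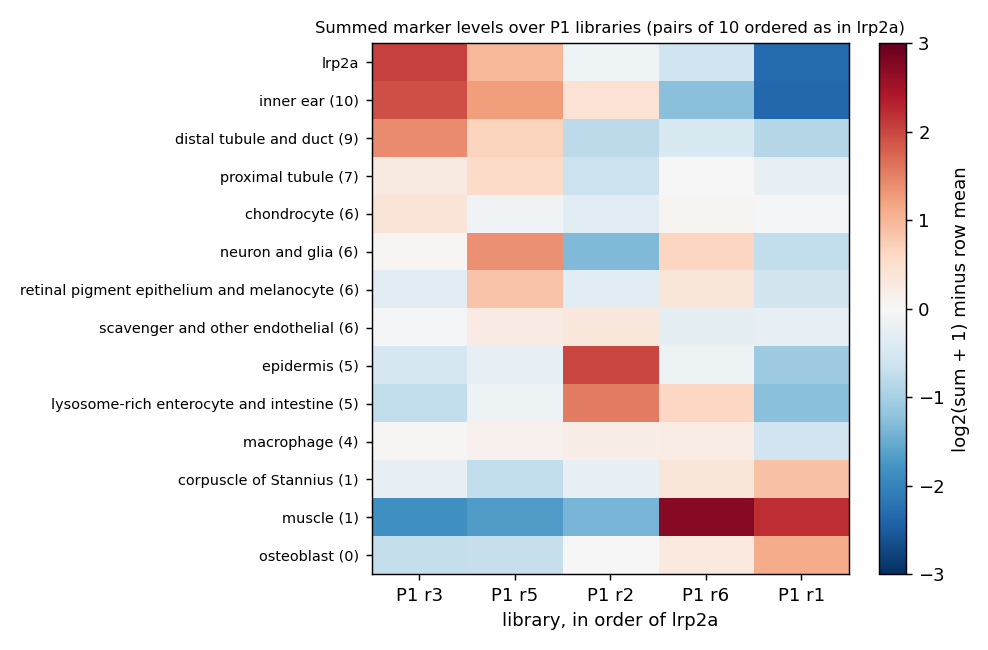
Heat map of centred log2(summed normalized read count + 1) for cell type marker lists (rows) over the P1 libraries (columns, in falling order of lrp2a), with the number of 10 pairs ordered as in lrp2a in brackets. The inner ear sum falls in the order of lrp2a from 4387 to 224, and the osteoblast sum runs in the reverse order from 425 to 1503.

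The other genes of receptor-mediated uptake were compared between P2 and P1 by limma, to show what accompanied the members. Over all genes tested 14.6% were called, 7.57% as higher and 7.05% as lower in P2, and the median log2 fold change was 0.00. The share of calls that were higher, 51.8%, was 39.9% under median of ratios or trimmed mean scaling, 67.6% with voom and 73.8% over the genes that had at least 10 reads in every library. Of 15 tested genes listed with the LDL receptor family, megalin apart, 7 rose in P2 and 0 fell, with a median of 0.91. They included lrp1ab, a broad endocytic receptor gene, which rose from 309 ± 173 (SD, n = 5) to 1366 ± 562 (SD, n = 3) normalized read counts (log2 fold change 2.27, adjusted p = 0.0133). lrp4, a Wnt and agrin co-receptor gene, rose by 2.38 on the log2 scale, and ldlrad4b by 3.22. The ldlrad genes on this list, ldlrad4b among them, are named for an LDL receptor class A domain and need not be receptors of the family. lrp1ab and lrp4 thus stood on the opposite side of the comparison from lrp2a, which was higher in P1. The 7 calls of this list rested on few libraries, since 0 were left without P2 replicate 1 or without P2 replicate 4, and 4 without P1 replicate 3 or without P1 replicate 6.

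Of 33 tested coat and adaptor genes, 6 rose and 1 fell, with a median of 0.54, where 7.57% of all genes tested rose and 7.05% fell. ldlrap1b, whose product is an adaptor for LDL receptor tails as Dab2 is, stood at 5.74, 2.96, 1.33, 2.68 and 8.45 in P1 replicates 1, 2, 3, 5 and 6 and at 49.5, 30.6 and 62.1 in P2 replicates 1, 2 and 4. Every P2 library was above every P1 library (log2 fold change 3.32, SE 0.52, adjusted p = 0.00177), the opposite direction to dab2. gulp1b, an adaptor gene, rose by 2.50 on the log2 scale, and ap2m1b, an AP-2 subunit gene, rose from 31.0 ± 17.1 (SD, n = 5) to 148 ± 85.5 (SD, n = 3). gipc2, of a family whose mammalian relative GIPC1 binds the megalin tail, was the gene that fell. It stood at 36.9, 49.9, 48.0, 51.3 and 49.1 in P1 and at 4.41, 12.7 and 2.05 in P2 (log2 fold change -2.97, adjusted p = 0.00163), and unlike lrp2a it was level within P1. The number of calls fell to 3 without P2 replicate 1 or P2 replicate 4 and to 4 without P1 replicate 5, while ldlrap1b and gipc2 were called in all 8 fits that left out 1 library.

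Few genes of the path after internalization were called. Of 26 early endosome and recycling genes tested, 0 passed in limma, edgeR or DESeq2, with 2 at an unadjusted p under 0.05 in limma and a median of 0.42. Without P2 replicate 2, 2 passed. Of 26 genes of endosome acidification and the lysosome, 1 passed, with a median of -0.13, while 4 passed without P2 replicate 2 and 2 without P1 replicate 2. The gene that passed was tfeb, a transcription factor gene of lysosome biogenesis, which fell from 96.9 ± 33.0 (SD, n = 5) to 12.8 ± 8.76 (SD, n = 3) normalized read counts (log2 fold change -3.02, adjusted p = 0.00245).

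Genes listed as ligands of these receptors were lower in P2 wherever they were called. Of 23 tested, 6 fell in P2, where 7.05% of all genes tested fell, and 0 rose, with a median of -1.11. This count was 1 with at least 10 reads in every library, 2 with voom and 3 with edgeR, with 0 rising in each. apoeb, an apolipoprotein E gene, stood at 513, 1340, 809, 1010 and 756 in P1 replicates 1, 2, 3, 5 and 6 and at 55.7, 480 and 0 in P2 replicates 1, 2 and 4 (log2 fold change -4.81, adjusted p = 0.0333), and it was called in 3 of the 8 fits that left out 1 library. rbp2a fell by 3.83 on the log2 scale, with 10 reads in all of P2. It was counted on this list, but it encodes a retinol-binding protein of the cell interior and not a secreted ligand. pth1a, a parathyroid hormone gene, had 8.92 ± 4.78 (SD, n = 5) in P1 and 0 reads in P2, which makes it at least 8.76-fold lower at a floor of 3 reads in the P2 library with the highest floor. The hedgehog ligand genes shha and shhb are also on this list. Each kept 9 of 10 pairs of P1 libraries in the order of lrp2a, where 3.32% of all genes kept at least 9. shha was among the 6 that fell, in 2 of the 8 fits that left out 1 library, and shhb was not called. Of the ligand genes, 2 were called without P1 replicate 5, P2 replicate 1 or P2 replicate 4, and 3 without P1 replicate 6. The macrophage and endothelial marker sums were also lower in every P2 library than in any P1 library, and their part in the ligand values was not tested.

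Of 12 tested genes that handle vitamin D, vitamin B12 and retinol, vdra, the vitamin D receptor gene, rose (log2 fold change 2.74, adjusted p = 0.0342) and rdh10a, a retinol dehydrogenase gene, fell (-1.93, adjusted p = 0.0105), with a median of -0.41. Over all genes tested 14.6% were called, near the share of this list, so nothing is read from its count. Calls on this list numbered 0 without P2 replicate 1 or P2 replicate 4. They numbered 1 without P1 replicate 1, 5 or 6, and 5 without P2 replicate 2. Of 11 chaperone and maturation genes, 3 rose in P2, calr3b (1.55), hsp90b1 (1.45) and canx (1.19), where 7.57% of all genes tested rose. The median was 0.79, with 0 falling. lrpap1, which works in the same compartment, stood at -0.33 (SE 0.29). These 3 calls became 1 without P1 replicate 5, P2 replicate 1 or P2 replicate 4.

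**Figure D5:**
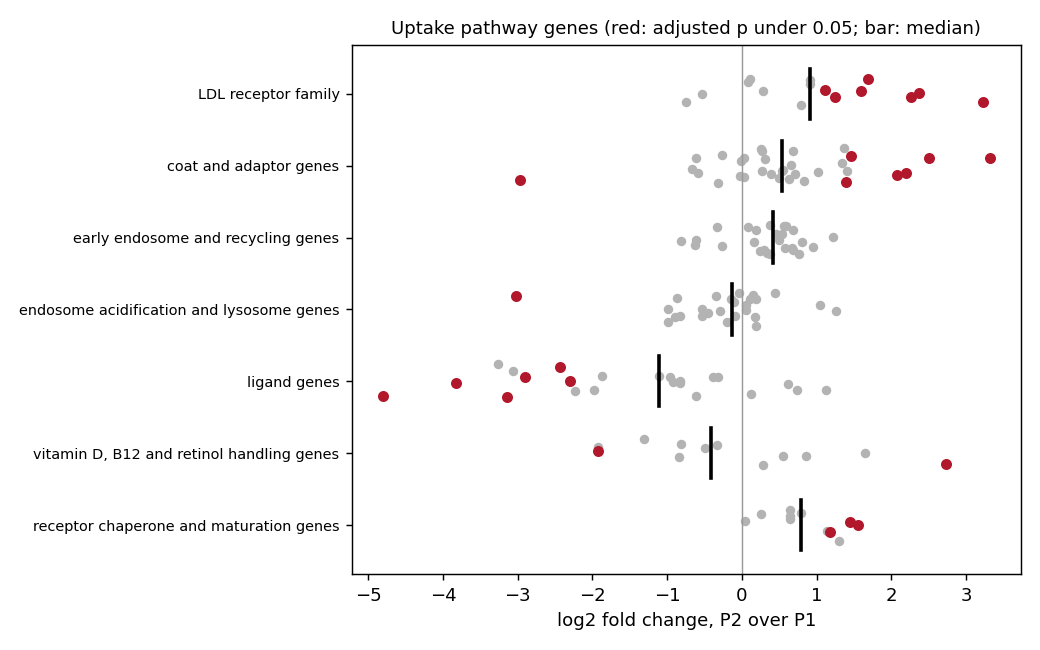
Log2 fold change P2 over P1 (horizontal axis) of each tested gene in 7 uptake lists (rows), with genes at an adjusted p under 0.05 in red and the list median as a black bar. The LDL receptor family list has 7 red points, all to the right, and the ligand list has 6, all to the left.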

How the data were processed

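Sorted cells of 5 P1 and 3 P2 libraries were profiled by SMART-Seq cDNA amplification and tagmentation. Per the paper's methods and the labels, the authors ran the nf-core rnaseq pipeline (version 3.0) with GRCz11 and Ensembl release 103. The pipeline was run with its defaults, and how strand, overlapping genes and reads shared by related genes were counted is not given further in the sources used here. The deposited values are a signal of read counts that the authors divided by a DESeq2 size factor per library, and 100% of values were whole reads (within 0.01) once multiplied by it, with size factors of 2.95 to 5.40. Another 10 columns match no sample and were not used, nor were 2 tables of the authors' own comparisons, which hold fold changes and p-values.

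The test was limma 3.58.1 in R 4.3.3 on log2(normalized read count + 1) with a variance trend, over 18475 genes with at least 10 reads in at least 3 libraries, with Benjamini-Hochberg adjustment over all of them and a call at 0.05. This scale understates the change of low genes. The fit was tested on simulated data. The members, gene lists and tests were chosen with earlier results of these data known. The genes named are all members, up to 3 called genes per direction of each pathway list, the 5 genes nearest to lrp2a, and up to 4 markers of each cell type list. Beyond these rules, further inner ear and proximal tubule markers, DAB2, shhb and the 4 genes under other observations were named after their values were seen. Ranks and pair orders used P1 alone. Alternatives were other pseudocounts, filters and scalings, voom, edgeR 4.0.16 and DESeq2 1.42.0 on the recovered reads, a replicate block and leaving out each library. No sequences or coordinates are given, since no sequence or genome of the build was used here.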

Additional observations from a re-analysis of the deposited data

Results flagged for a closer look

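Of 41 measures examined over the 5 P1 libraries (members, named genes and summed marker lists), 2 had a library farther from the rest than a limit that chance passes in about 1 of 20 groups. Both were sums of markers of other cell types. That rate over 41 measures gives about this many flags, so nothing is read from their number or their libraries. The epidermis marker sum was 24428 in P1 replicate 2, against 2883 to 5538 in the other P1 libraries, a gap of 0.877 of the range where the limit is 0.71. P1 replicate 2 was also the library with the lowest lrp2b. The macrophage marker sum was 144.73 in P1 replicate 1, against 223 to 253 in the other P1 libraries, with a gap of 0.722. P1 replicate 1 was the library with the lowest lrp2a, cubn and dab2 of P1. The part of these cell types in the values of the uptake genes was not tested.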

How the results depend on the processing

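lrp2a was lower in P2 under every alternative in which it could be fitted, from -5.19 without the 3 muscle-rich libraries to -1.92 in the 4 libraries of replicates 1 and 2. When 1 library was left out, the log2 fold change ranged from -4.43 to -3.15 for lrp2a, -1.03 to -0.19 for lrp2b, -0.15 to 0.86 for cubn, -2.48 to -1.35 for dab2 and -0.56 to -0.20 for lrpap1. The share of partner pairs in the order of lrp2a was 64% with all P1 libraries, 72% under trimmed mean scaling and 74% under library totals alone. Over all genes the share also moved, at 49.8%, 50.8% and 56.5% in the same settings. The partner share ranged from 60% to 70% when 1 P1 library was left out, against 48.6% to 51% over all genes. With 1 of the 8 libraries left out, calls numbered 901 to 4004 over all genes, against 2700. They numbered 0 to 9 for the LDL receptor family, 3 to 10 for coat and adaptor genes and 0 to 2 for early endosome genes. For lysosome genes they were 1 to 4, for ligands 2 to 8, for vitamin handling 0 to 5 and for chaperones 1 to 4.

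P1 and P2 share the replicate numbers 1 and 2, and their titles share a sample code, but no label says what the code or the number marks, and deviations of same-numbered libraries correlated at -0.07 over 18475 genes. In these 4 libraries the replicate block gave 454 calls and the same libraries with no replicate block 199. With or without the block, lrp2a was -1.92, lrp2b 0.52 and cubn 1.75. LDL receptor family, coat and adaptor, lysosome, vitamin and chaperone calls were 0 with the block and 0 without it, and ligand calls were 4 with the block and 1 without it. Fewer samples enter these fits.

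With at least 10 reads in every library, which tests fewer genes, 1741 genes were called (73.8% higher in P2), with 4 coat and adaptor, 1 ligand and 1 vitamin gene. voom called 1601 genes (67.6% higher), with 2 ligand and 1 vitamin gene, and gave -3.14 for dab2, and a pseudocount of 5 gave -1.01. edgeR called 3 ligand genes. With no low-count filter 1 vitamin gene was called. Median of ratios and trimmed mean scaling each called 2 lysosome genes, and without the 3 muscle-rich libraries 3 lysosome and 4 vitamin genes were called. The cause was not tested. Under median of ratios scaling the median log2 fold change of all genes was -0.12 and 39.9% of calls were higher in P2, against 51.8%. Shallow counts limit amn, lrp2b, cubn and dab2 most.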

Other observations

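Of the 25 genes nearest to lrp2a over the P1 libraries, 4 are given here, chosen after their values were seen. shha, a Sonic hedgehog gene of the floor plate and notochord, is also on the ligand list above. It stood at 3.32, 15.2, 35.4, 44.3 and 13.0 normalized read counts in P1 replicates 1, 2, 3, 5 and 6, and at 3.39, 4.96 and 0.293 in P2 replicates 1, 2 and 4. Of its 10 P1 pairs, 9 were in the order of lrp2a. foxa2, a transcription factor gene of the floor plate and endoderm, stood at 1.21, 6.67, 15.1, 11.3 and 4.23 in P1 and at 2.04, 0.826 and 0 in P2, with 10 pairs. lmx1bb, a LIM homeobox gene, kept 10 pairs as well, at 17.2, 83.6, 142.5, 106 and 26 in P1 and 1.70, 4.96 and 7.61 in P2 (log2 fold change -3.48). gpx3, which encodes a secreted glutathione peroxidase, stood at 19.3, 65.6, 140.1, 198 and 41.9 in P1 and at most 20.9 in P2, with 9 pairs. These genes were picked for their likeness in 5 libraries, so the likeness is a description.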
